A study of Mus musculus with 4 samples.

Results

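Both Foxp3+ populations of mouse CD4+ T cells were set against both Foxp3- populations, gene by gene. The Foxp3+ side held CD25hi Foxp3+ and CD25lo Foxp3+ cells, and the Foxp3- side held CD25+ Foxp3- and CD25- Foxp3- cells. All 4 arrays of the series entered, 2 on each side. A gene counted as shared by a side when the lower of its 2 intensities exceeded the higher of the other side's 2 intensities, and the ratio of those inner values is called the gap. Of 9622 measured genes, 1636 were separated with both Foxp3+ arrays higher (17.0%) and 1437 with both Foxp3+ arrays lower (14.9%). A gap of at least 1.5-fold was asked for before a gene was called higher or lower, which left 269 genes higher (2.80%) and 186 genes lower (1.93%) on the Foxp3+ side.

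Spleen and lymph node cells were taken from 25 B6/129 F2 mice, males 5 to 8 weeks old, whose Foxp3 gene carries a knocked-in green fluorescent protein (GFP). All 4 populations therefore share this allele, and GFP stood for Foxp3 in the sort. Cells bearing CD8, B220, CD11b, NK1.1 or DX5 were first removed with magnetic beads, and the CD4+ cells left were sorted by GFP and CD25. RNA of each population went through 2 rounds of amplification and was hybridised to a single Affymetrix Mouse Genome 430 2.0 array. No population had a replicate, and the 2 arrays of a side are different cells rather than repeats, so differences were judged by size alone, with no test, and the number of arrays limits the precision.

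Foxp3 is a forkhead transcription factor that regulatory T (Treg) cells need to restrain other immune cells, and its loss causes severe autoimmunity. CD25 gives the IL-2 receptor its high affinity. It is carried by most Treg cells but also by recently activated T cells without Foxp3, so that neither marker alone separates the populations. Treg cells are known to act through the receptor CTLA-4, through cytokines such as IL-10, through the ectoenzymes CD39 and CD73, which turn extracellular ATP into adenosine, and through cyclic AMP.

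The gene used for the sort followed its label. Foxp3 had an intensity of 1308 in CD25hi and 1117 in CD25lo Foxp3+ cells, and of 16.8 in CD25+ and 17.6 in CD25- Foxp3- cells, a gap of 63.6-fold. Il2ra, the gene of CD25, was separated upward by a gap of only 1.02-fold and did not pass the 1.5-fold limit. Its 288 in CD25lo Foxp3+ and 283 in CD25+ Foxp3- cells nearly met. A second Il2ra probe set overlapped between the sides, at 417 in CD25hi and 84.2 in CD25lo Foxp3+ cells and 114 in CD25+ and 10.1 in CD25- Foxp3- cells. The 4 arrays had median intensities between 15.03 and 15.6, and 8493 of the 9622 measured genes reached the filter intensity of 32.5 in all of them. Cd4 lay between 2434 and 2948 in the 4 arrays. The signalling chain Cd3e gave 837 and 806 versus 497 and 808, in the order used from here on: CD25hi and CD25lo Foxp3+ cells, versus CD25+ and CD25- Foxp3- cells. A value of 10.1 is the floor, to which lower intensities were set. In sorted populations read as bulk RNA, fewer cells of a type and less RNA per cell cannot be told apart.

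At wider gaps the split by Foxp3 stood further from the other ways of pairing the 4 arrays. At 1.5-fold it separated 455 genes in either direction (4.73%), pairing by CD25 separated 124 (1.29%), and pairing by neither marker, which sets CD25hi Foxp3+ with CD25- Foxp3- cells, separated 294 (3.06%). At 2-fold the counts were 207 (2.15%), 29 (0.301%) and 54 (0.561%), and at 4-fold they were 37 (0.385%), 2 (0.0208%) and 1 (0.0104%). In the Foxp3 pairing, 111 genes were higher (1.15%) and 96 lower (0.998%) at 2-fold, and 18 were higher (0.187%) and 19 lower (0.197%) at 4-fold. With no minimum gap the order was different, at 31.9%, 27.2% and 40.6% of measured genes. The 3 pairings use the same 4 arrays, so their counts are given side by side and are not independent of each other.

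Several of the genes higher in the Foxp3+ arrays encode adhesion molecules. Itgae encodes CD103, the alpha chain of an integrin for E-cadherin on epithelium, and gave 4994 and 4421 versus 377 and 296. A second Itgae probe set gave 3588 and 2849 versus 226 and 182. Klrg1, an inhibitory receptor whose ligands are cadherins, gave 1085 and 2429 versus 79.1 and 68.4, a gap of 13.7-fold. In both genes each Foxp3+ array lay far above each Foxp3- array, and the sides did not come near each other. Prg4, which encodes the joint lubricant lubricin, gave 684 and 664 versus 72.03 and 70.3, so that the arrays of each side nearly coincided across a gap of 9.22-fold. The transforming growth factor beta (TGF-beta) activating integrin chain Itgb8 gave 240.3 and 528 versus 75.7 and 20.2. The adhesion molecule Icam1 gave 637 and 903 versus 407 and 317, a narrower gap of 1.57-fold. Cd99l2, an adhesion molecule of the CD99 family, gave 155 and 148 versus 83.7 and 79.8, with little spread within a side.

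Of 46 adhesion genes listed, 42 had a probe set, 31 were measured and 27 reached the filter in every array. Among the 31, 6 were higher (Itgae, Itgb8, Icam1, Epcam, Cd99l2 and Nrp1), 2 were lower (Itgb5 and Sema4a) and 23 did not pass the gap. The shares to set beside the counts of this and every later list are those of all measured genes, 2.80% higher and 1.93% lower. The median log2 difference between the sides was 0.58 over the measured members (0.33 without CD25+ Foxp3- cells to 0.60 without CD25hi Foxp3+ cells) and 0.13 over all members with a probe set, beside -0.01 over all measured genes. The values in brackets here and after each list median are the lowest and highest medians when 1 array was left out, with that array named: list medians depended on single arrays, most often on CD25+ Foxp3- cells, and 9 of 25 lists changed sign in this way. Nrp1, a co-receptor for semaphorins and growth factors found on thymus-derived Treg cells, gave 3683 and 5447 versus 1053 and 281. For Nrp1 the Foxp3- arrays themselves differed widely. Itgb5, an integrin chain that pairs with the alpha v chain, gave 107 and 141 versus 392 and 349. Sema4a, a semaphorin that acts on T cells, gave 51.01 and 69.6 versus 317 and 497. The general leukocyte integrin chains Itgal, at 2614 and 3154 versus 2937 and 2657, and Itgb2, at 6952 and 6934 versus 5992 and 6678, did not pass.

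**Figure D1:**
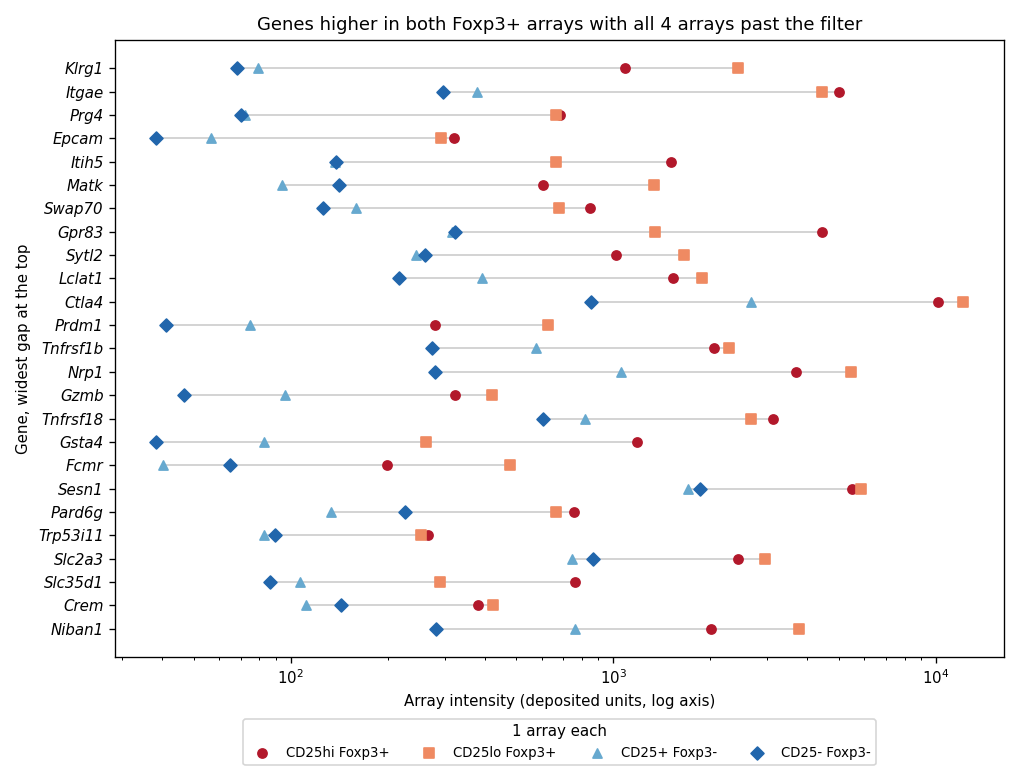
Array intensity on a log axis (deposited units) of the 25 genes with the widest gap among those higher in both Foxp3+ arrays whose 4 arrays all reached the filter, with 1 point per array and a line joining each gene's lowest and highest array. Both Foxp3+ points lie to the right of both Foxp3- points in every gene shown, which the choice of genes fixes, and the points of a side nearly coincide for Prg4 and Itgae but spread for Gpr83, Nrp1 and Gsta4.

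Genes better known from matrix, muscle and epithelium are described together. The list was written with the genes of widest gap known and holds 8 of them (Neb, Prg4, Ncmap, Lamc1, Csrp2, Epcam, Itih5 and F13a1), so its counts and median support nothing. Of 45 listed, 41 had a probe set and 24 were measured, but only 12 reached the filter in every array. Neb (nebulin, a giant filament protein of muscle) gave 182 and 330.1 versus 13.9 and 10.1, the laminin chain Lamc1 gave 164 and 118 versus 20.96 and 12.6, and Ncmap, a myelin-associated protein, gave 86.2 and 147 versus 10.6 and 13.97. In these genes the Foxp3- arrays lay between 10.1 and 21.0, close to the floor, and the Foxp3+ arrays well above it, so the size of the gap is uncertain. Itih5, of a family of proteins that bind hyaluronan, reached the filter in all arrays and gave 1509 and 667 versus 137 and 138. Capg, which caps actin filaments, gave 3492 and 3598 versus 1407 and 279, and there the CD25+ Foxp3- array lay between the Foxp3+ arrays and CD25- Foxp3- cells. In all, 11 of the 24 were higher and 1 was lower, Pdlim4, a cytoskeletal adaptor that read at the floor with Foxp3, at 10.1 and 10.1 versus 33.8 and 455. The median log2 difference was 1.24 over the 24 measured genes (0.78 without CD25- Foxp3- cells to 2.25 without CD25+ Foxp3- cells) but 0.05 over the 41 with a probe set, since a gene low everywhere except on one side enters the measured set only through that side.

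Epcam, the epithelial adhesion molecule, was the single higher gene of which another probe set separated the other way. Its main probe set gave 321 and 292 versus 56.7 and 38.2, and the other gave 34.9 and 43.1 versus 48.5 and 53.8, near the filter. Among the 269 higher genes, 105 had at least 2 probe sets past the filter. In 93 of these every probe set separated the sides the same way, and in 50 every probe set passed the 1.5-fold gap. Among the 186 lower genes, 60 had at least 2 probe sets, with 48 separated alike in all and 31 past the gap in all.

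Surface and secreted molecules long associated with Treg cells were mostly on the upward side. Of 30 such genes listed, 25 had a probe set, all 25 were measured, and 18 reached the filter in every array. Of the 25, 18 were higher, none was lower and 7 did not pass (Ebi3, Lag3, Icos, Ecm1, Penk, Il1r2 and Cd81), with a median log2 difference of 2.46 (1.63 without CD25- Foxp3- cells to 3.47 without CD25+ Foxp3- cells). The list is in part known from arrays like these and is not independent evidence. Izumo1r, the folate receptor family member also called FR4, gave 4874 and 3441 versus 1324 and 1079. Tnfrsf18 (GITR) gave 3129 and 2672 versus 815 and 607 and Tnfrsf4 (OX40) gave 3929 and 3087 versus 1539 and 221. The Foxp3- arrays lay close together for Izumo1r and Tnfrsf18, whereas for Tnfrsf4 CD25+ Foxp3- cells lay far above CD25- Foxp3- cells. Gpr83, a G protein-coupled receptor, gave 4426 and 1349.6 versus 315 and 323, with the spread on the Foxp3+ side instead. Il2rb, the beta chain of the IL-2 receptor, gave 1053 and 459 versus 257 and 68.5, and each CD25-rich array exceeded its partner. The costimulator Icos gave 7042 and 10804 versus 5473 and 2574, separated but with a gap of 1.29-fold. Ebi3, a subunit of IL-35, gave 233 and 239 versus 251 and 41.6, so that CD25+ Foxp3- cells were level with both Foxp3+ populations.

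Most costimulatory and inhibitory receptor and ligand genes did not pass the gap. Of 42 measured members (50 listed, 35 past the filter in every array), 7 were higher and 3 lower, with a median log2 difference of 0.53 (0.25 without CD25- Foxp3- cells to 0.67 without CD25+ Foxp3- cells), or 0.27 over all 49 with a probe set. Ctla4, which removes the ligands CD80 and CD86 from antigen-presenting cells, gave 10132 and 12173 versus 2682 and 852. The genes of those ligands were themselves higher in the Foxp3+ arrays: Cd80 gave 47.8 and 89.7 versus 10.1 and 15.04 and Cd86 gave 196 and 164 versus 108 and 101. Cd80 was at or near the floor in both Foxp3- arrays, and Cd86 only just passed the gap. Cd86 lost the gap when the median over probe sets was taken, and again when every probe set had to pass. Of the tumour necrosis factor (TNF) receptor family, Tnfrsf9 (4-1BB) gave 1303 and 1558 versus 556 and 110.0 and Tnfrsf1b (TNF receptor type 2) gave 2051 and 2289 versus 575 and 274. Tnfrsf1a, Tnfrsf25 and Tnfrsf14 overlapped between the sides. Of the TNF ligand family, 2 were lower, the death ligand Fasl and Tnfsf14 (LIGHT), the latter at 15.7 and 14.6 versus 151 and 35.6. Tnfsf10 (TRAIL) was separated upward with a gap of 1.47-fold. Tnfsf8 and Tnf were separated downward with gaps of 1.45-fold and 1.27-fold, and Tnfsf4, Tnfsf11, Lta and Ltb overlapped. The lower receptor was Crtam, an adhesion receptor of cytotoxic lymphocytes, at 37.1 and 32.9 versus 324 and 248. Cd28 gave 2596 and 3602 versus 3299.8 and 3108 and was not separated. Cd2, which binds CD48 on other cells, gave 10149 and 10028 versus 3604 and 6847 and Cd27 gave 1870.4 and 1970.3 versus 766 and 1260.2, both separated upward and just short of the 1.5-fold gap.

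In the list of cyclic AMP and adenosine genes, some members were higher and some lower, and most did not pass the gap. Entpd1 (CD39), which strips phosphates from extracellular ATP, gave 286 and 327 versus 53.1 and 18.8. Nt5e (CD73), which makes adenosine from AMP, gave 1914 and 3086 versus 847 and 219. In both genes CD25lo Foxp3+ cells were highest and CD25- Foxp3- cells lowest. Against these, 3 phosphodiesterases were lower. Pde3b, which breaks down cyclic AMP, gave 213 and 281 versus 2742 and 6467, a gap of 9.75-fold. Pde7a, a phosphodiesterase specific for cyclic AMP, gave 390.4 and 386 versus 1158 and 1110.4, and all 7 of its probe sets passed the gap, with gaps from 1.62-fold to 2.84-fold. Pde7a had the widest gap of any lower gene relative to the spread within its sides. Pde5a, which breaks down cyclic GMP, gave 11.1 and 12.1 versus 34.6 and 187, with the Foxp3+ arrays near the floor.

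Other phosphodiesterases did not pass the gap. Pde4b gave 771 and 918 versus 735 and 1189.8 and Pde4d gave 203 and 121 versus 184 and 489, both overlapping between the sides. Pde2a gave 1435 and 2619.6 versus 786 and 1305 and Pde8a gave 243 and 245 versus 171 and 159, separated upward with gaps of 1.10-fold and 1.43-fold. Crem, a transcription factor that responds to cyclic AMP, was higher at 379.9 and 423 versus 112 and 144, and Rapgef5, an exchange factor for Rap GTPases, was higher at 208 and 502 versus 43.5 and 23.01. Vipr1, a receptor for vasoactive intestinal peptide that raises cyclic AMP, was lower at 36.6 and 46.4 versus 128 and 766. Over the 40 measured members of the pathway (46 listed, 34 past the filter in every array) 4 were higher, 4 were lower and 32 did not pass, with a median log2 difference of 0.10 (0.05 without CD25+ Foxp3- cells to 0.22 without CD25lo Foxp3+ cells). Of soluble guanylate cyclase, a receptor for nitric oxide, the subunit Gucy1a1 was higher at 424 and 459.7 versus 182 and 27.7. Other Gucy1a1 probe sets had gaps of 2.83-fold and 1.33-fold. The partner subunit Gucy1b1 gave 112 and 199.8 versus 75.1 and 22.6 and fell just short, with a gap of 1.49-fold. A second Gucy1b1 probe set overlapped between the sides.

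Among 71 measured lineage and state transcription factors (77 listed, 66 past the filter in every array), 8 were higher and 6 lower, with a median log2 difference of 0.17 (0.15 without CD25- Foxp3- cells to 0.27 without CD25lo Foxp3+ cells). Of the Ikaros family, Ikzf2 (Helios) gave 4891 and 7034 versus 1917 and 424, Ikzf4 (Eos) gave 579 and 543 versus 234 and 42.7 and Ikzf3 (Aiolos) gave 1188 and 2269 versus 626 and 508. Within that family the CD25+ Foxp3- array was nearest to the Foxp3+ side for all 3, and Ikzf1 (Ikaros) lay in the other direction, at 3817 and 3447 versus 5021 and 6023, without passing the gap. Prdm1 (Blimp-1), a repressor found in effector lymphocytes and plasma cells, gave 280.2 and 627 versus 74.7 and 41.2. Nfil3, a basic leucine zipper factor, gave 218 and 419 versus 95.95 and 38.02, and Batf, an AP-1 family member, gave 1101 and 1544 versus 715 and 474. Hopx, a small homeodomain protein, gave 2158 and 1529 versus 713 and 525, and Mxd1, an antagonist of Myc, gave 398 and 225 versus 99.8 and 135. Mxd1 lost the gap when the median over probe sets was taken, and again when every probe set had to pass. CD25lo Foxp3+ cells were highest for Prdm1, Nfil3 and Batf, and CD25hi Foxp3+ cells for Hopx and Mxd1.

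The 6 lower factors were Epas1, Eomes, Id2, Zbtb16, Zeb2 and Pou2af1. Eomes, Zbtb16 and Pou2af1 are also in the lists of markers of other cell types described below, and the part that such cells take was not tested. Epas1, a hypoxia-inducible factor, gave 26.6 and 47.8 versus 320.0 and 315, with its Foxp3- arrays nearly equal. Id2, an inhibitor of E proteins, gave 970.4 and 1589 versus 9203 and 2858, and Eomes, a T-box factor of cytotoxic and memory cells, gave 50.01 and 35.8 versus 411 and 106. In Id2 and Eomes CD25+ Foxp3- cells stood well above CD25- Foxp3- cells, which in turn stood above both Foxp3+ populations. Zbtb16 (PLZF) gave 10.1 and 10.1 versus 82.2 and 17.1, at the floor with Foxp3, and Zeb2 gave 10.3 and 10.1 versus 45.4 and 17.8, at or next to the floor with Foxp3. Both reached the filter in CD25+ Foxp3- cells alone. Their gaps rest on CD25- Foxp3- values that were themselves under the filter. Pou2af1, a coactivator of B cells, gave 43.2 and 154 versus 928 and 400.1. Of the other helper lineage factors, Gata3 gave 760.0 and 966 versus 566 and 426, separated upward by 1.34-fold, Tbx21 (T-bet) gave 20.5 and 67.6 versus 227 and 20.2 and Bcl6 gave 183 and 465 versus 476 and 302. The last pair overlapped between the sides.

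Promoters are shown for 4 genes that passed the gap, 3 higher and 1 lower, because they hold the core of the forkhead motif, the DNA sequence family that Foxp3 and its relatives bind. The sequences run from 250 bases before to 50 bases after a gene's start, 5′ to 3′ on the gene's own strand, and are from RefSeq, assembly GRCm38.p6. Capitals mark the letters TGTTTAC or, for the opposite strand, GTAAACA. Swap70 (chr7:110221453-110221752, plus strand), Prdm1 (chr10:44458699-44458998, minus strand) and Sesn1 (chr10:41810324-41810623, plus strand, the first of its listed starts) were higher in both Foxp3+ arrays, and Dapl1 (chr2:59484403-59484702, plus strand) was lower.
Swap70: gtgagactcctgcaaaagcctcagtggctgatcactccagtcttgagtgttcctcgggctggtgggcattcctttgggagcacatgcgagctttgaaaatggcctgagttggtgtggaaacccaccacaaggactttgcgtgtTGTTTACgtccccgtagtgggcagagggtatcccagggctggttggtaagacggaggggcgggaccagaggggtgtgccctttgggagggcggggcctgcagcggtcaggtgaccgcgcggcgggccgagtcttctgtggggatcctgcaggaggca
Prdm1: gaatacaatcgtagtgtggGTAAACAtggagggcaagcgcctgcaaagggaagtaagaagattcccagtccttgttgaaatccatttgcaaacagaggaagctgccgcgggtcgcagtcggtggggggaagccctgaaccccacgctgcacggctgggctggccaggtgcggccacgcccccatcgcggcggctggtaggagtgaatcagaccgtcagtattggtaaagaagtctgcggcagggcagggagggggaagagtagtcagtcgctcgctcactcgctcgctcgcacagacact
Sesn1: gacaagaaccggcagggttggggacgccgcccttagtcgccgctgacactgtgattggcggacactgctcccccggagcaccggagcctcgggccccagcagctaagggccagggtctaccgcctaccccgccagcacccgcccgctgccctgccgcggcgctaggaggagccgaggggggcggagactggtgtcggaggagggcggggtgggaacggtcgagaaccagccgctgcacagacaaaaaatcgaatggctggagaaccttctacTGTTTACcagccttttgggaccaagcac
Dapl1: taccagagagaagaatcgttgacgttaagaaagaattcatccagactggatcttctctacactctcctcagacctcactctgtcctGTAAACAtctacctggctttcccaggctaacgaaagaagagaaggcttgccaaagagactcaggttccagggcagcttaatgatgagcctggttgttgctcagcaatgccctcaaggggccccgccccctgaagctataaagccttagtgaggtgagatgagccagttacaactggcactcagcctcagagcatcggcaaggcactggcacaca
The motif begins 107 bases before the start in Swap70, 231 bases before it in Prdm1, 22 bases after it in Sesn1 and 164 bases before it in Dapl1. The promoter of another listed start of Sesn1 (chr10:41887189-41887488, plus strand) holds no match. A match is a run of letters and not a binding site.

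The forkhead core was present in 10 of the 205 higher genes with a listed promoter (4.88%), in 2 of 130 lower genes (1.54%), in 252 of 7895 measured genes (3.19%) and in 1095 of all 27025 genes of the table (4.05%). Counts of 10 and 2 are too few to be read in either direction. The 10 were Abcb1a, Aldoc, Etv5, Gbp3, Lpin2, Ndrg2, Prdm1, Sdcbp2, Sesn1 and Swap70. A further 6 motifs were searched on both strands, each on its own, although their letters can overlap. In the higher, lower and all measured genes in turn, the STAT letters TTCNNNGAA were in 10.7%, 9.23% and 8.25% of promoters, and the NFAT letters TGGAAA in 20%, 26.9% and 19.0%. The AP-1 letters TGANTCA were in 9.76%, 8.46% and 5.75%, the NF-kappaB letters GGGNNTTCC in 10.7%, 9.23% and 8.93%, and the Runx letters TGTGGT in 19.0%, 20% and 15.1%. The Ets letters CCGGAAGT were in 1.46%, 3.08% and 10.3%. Over all genes of the table the shares were 9.55% for STAT, 23.9% for NFAT, 8.97% for AP-1, 6.58% for NF-kappaB, 18.9% for Runx and 4.31% for Ets.

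Swap70, whose promoter is printed above, encodes a phosphoinositide-binding protein that acts with Rac on the actin cytoskeleton, and gave 848 and 678 versus 159.9 and 126. A second probe set of Swap70 gave 871 and 664 versus 175 and 93.0, so both probe sets kept the sides far apart. Sesn1 (sestrin), which restrains the growth kinase mTOR, gave 5502 and 5847 versus 1710.2 and 1857, a gap of 2.96-fold with little spread within a side. Its other 3 probe sets had gaps of 1.09-fold, 1.2-fold and 1.51-fold in the same direction.

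Of 38 measured genes of the phosphoinositide 3-kinase (PI3K), AKT and mTOR pathway (35 past the filter in every array), 6 were higher, 1 was lower and 31 did not pass, with a median log2 difference of 0.03 (-0.19 without CD25+ Foxp3- cells to 0.17 without CD25- Foxp3- cells). Phlpp1, a phosphatase that dephosphorylates AKT, gave 447 and 643 versus 164 and 221. The inositol phosphatase Inpp5f gave 1489 and 1588 versus 718 and 629, and Inpp4b gave 2279.9 and 3499 versus 1434 and 978. Among these 3, the arrays of a side lay closest together in Inpp5f. Other genes that restrain the pathway did not pass: Phlpp2, Inppl1, Pik3ip1 and Ddit4 overlapped, Inpp5d and Sesn2 were separated upward with gaps of 1.09-fold and 1.07-fold, and Tsc1 and Sesn3 were separated downward with gaps of 1.02-fold and 1.11-fold. The pseudokinase Trib1, a relative of the AKT-binding tribbles proteins, gave 171 and 139.9 versus 55.01 and 47.6, and Pik3r1, the regulatory subunit of PI3K, gave 1327 and 1411 versus 866 and 861. Inpp4b, Pik3r1 and Sesn1 lost the gap when the median over probe sets was taken. Inpp4b, Pik3r1, Sesn1 and Inpp5f lost it when every probe set had to pass. The lower gene was Pim2, a survival kinase, at 133 and 139 versus 300.4 and 332. The kinases themselves, such as Akt1 at 641 and 616 versus 696 and 647 and Mtor at 825 and 616 versus 611 and 829, were not past the gap.

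In T cell receptor signalling, 62 of 66 measured genes did not pass the gap (63 reached the filter in every array). Of the 66, 3 were higher (4.55%) and 1 was lower (1.52%), beside 2.80% and 1.93% of all measured genes. The median log2 difference was 0.12 (-0.14 without CD25+ Foxp3- cells to 0.33 without CD25- Foxp3- cells). Matk, a kinase that phosphorylates the inhibitory tail of Src family kinases, gave 608 and 1340.0 versus 93.7 and 141. Dusp4, a phosphatase of MAP kinases, gave 2090.5 and 1839.9 versus 830.4 and 119.5, and Rgs1, which shortens G protein signalling, gave 3565 and 2748 versus 1647 and 739. All 3 were higher on the Foxp3+ side, CD25lo Foxp3+ cells leading for Matk and CD25hi Foxp3+ cells for the other 2. Themis, which sets the strength of receptor signalling during T cell selection, was lower at 320.4 and 235 versus 703 and 1496. The proximal kinase Zap70 gave 1453 and 1823 versus 2072 and 1719 and the adaptor Lat gave 4865 and 3786 versus 4270.3 and 6115, overlapping between the sides.

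Of 51 measured cytokine receptor and signalling genes (58 listed, 46 past the filter in every array), 5 were higher (Il2rb, Il10ra, Il10rb, Tgfbr1 and Jak3) and 1 was lower (Tgfbr3), for a median log2 difference of 0.11 (0.12 without CD25hi Foxp3+ cells to 0.36 without CD25- Foxp3- cells). The IL-10 receptor chains were higher together with Il10, but for Il10rb this depended on the probe set. Il10rb and Il2rb both lost the gap when the median over probe sets was taken, and again when every probe set had to pass. Il10 gave 207 and 395 versus 44.1 and 10.1, the binding chain Il10ra gave 186 and 281 versus 69.98 and 90.9 and the second chain Il10rb gave 863 and 885 versus 465 and 549. CD25lo Foxp3+ cells were highest in each of the 3. The TGF-beta receptors went opposite ways. Tgfbr1, the kinase that signals, gave 2361 and 2664 versus 1104 and 809, and Tgfbr3 (betaglycan), which presents the ligand, gave 154 and 114 versus 824 and 1929. Tgfbr2, the receptor that binds the ligand first, gave 3893 and 3494 versus 4247 and 6668 and did not pass. Jak3, the kinase of the common gamma chain, gave 686 and 550.3 versus 358 and 349. Il7r, high on naive and memory T cells and low on Treg cells, gave 3565 and 3465 versus 5075 and 6659, lower on the Foxp3+ side by a gap of 1.42-fold and so just outside.

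Of 25 measured cytokine and ligand genes, 12 reached the filter in every array, 3 were higher (Il10, Fgl2 and Lgals1) and 2 were lower (Il4 and Il21). Fgl2, a secreted fibrinogen-like protein with suppressive activity, gave 335 and 878 versus 179 and 22.6. Lgals1 (galectin), which binds cell surface sugars, gave 8712 and 13474 versus 5431 and 3963. In both the CD25lo Foxp3+ array was highest. Il4 gave 11.2 and 10.8 versus 145 and 71.95 and Il21 gave 15.3 and 59.8 versus 1794 and 122, Il4 lying close to the floor with Foxp3. The list's median log2 difference was -0.27 over the 25 (-0.85 without CD25- Foxp3- cells to 0.42 without CD25+ Foxp3- cells) and -0.0025 over the 38 with a probe set. Among 19 measured chemokine receptors, Ccr8 at 185 and 194 versus 53.2 and 19.2 and Ccr4 at 63.7 and 88.5 versus 34.3 and 10.1 were higher and Cxcr6 at 73.5 and 128 versus 2148 and 249 was lower, with 15 of the 19 past the filter in every array and a median of 0.64 (0.29 without CD25lo Foxp3+ cells to 1.02 without CD25+ Foxp3- cells).

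Granule and death genes of cytotoxic cells split. Of 18 measured members (17 past the filter in every array), 2 were higher, 5 were lower and 11 did not pass, with a median log2 difference of 0.11 (0.04 without CD25+ Foxp3- cells to 0.15 without CD25hi Foxp3+ cells). Gzmb, the granzyme that activates caspases, was higher at 323 and 422 versus 96.4 and 46.6, as was Cst7 (cystatin F, an inhibitor of granule proteases) at 1433 and 1867 versus 916 and 395. Gzma, the tryptase-like granzyme, was lower at 60.4 and 97.6 versus 169 and 348 and Gzmk at 10.1 and 60.6 versus 416 and 139. Nkg7, a granule protein, was lower at 226 and 265 versus 808 and 572 and Fasl at 53.8 and 77.5 versus 514 and 461. The granzymes thus divided within one family. That the sides do not overlap in these 3 is fixed by the gap rule that called them. Summed over the 17 listed markers of CD8 T and NK cells with a probe set, the intensity was 937 and 1544 in the Foxp3+ arrays and 3446 and 3520 in the Foxp3- arrays. That list includes Gzma, Gzmk and Nkg7 themselves, and the part that such cells take in the result was not tested.

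Survival genes and nutrient genes mostly stayed within the gap. Of 32 measured survival and death genes, all past the filter in every array, Pmaip1 (Noxa), at 129 and 341 versus 77.8 and 62.5, and Gadd45g, a stress-response gene, at 323 and 205 versus 128 and 113, were higher and Fasl was lower. These are 6.25% of the survival and death genes higher and 3.1% lower, beside 2.80% and 1.93% of all measured genes. The median log2 difference was 0.39 (0.37 without CD25- Foxp3- cells to 0.45 without CD25hi Foxp3+ cells). Of 42 measured genes of glucose, lipid and amino acid handling, Slc2a3 (the glucose transporter GLUT3) was higher at 2433 and 2964 versus 744 and 866, and so was Gsta4, a glutathione transferase, at 1184 and 262 versus 82.6 and 38.2. Slc16a5, a monocarboxylate transporter family member, was lower at 31.9 and 17.2 versus 115 and 651. For Slc2a3 the arrays of each side were close together, for Gsta4 CD25hi Foxp3+ cells stood far above the others, and for Slc16a5 CD25- Foxp3- cells did. Slc2a1 (GLUT1) gave 947 and 854 versus 681 and 852 and did not pass. In the glucose, lipid and amino acid list 4.76% were higher and 2.38% lower, beside the same shares of all measured genes. The median of this list was -0.01 (-0.18 without CD25- Foxp3- cells to 0.09 without CD25+ Foxp3- cells).

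Transcripts of 2 sialyltransferases were lower. St6galnac2, which adds sialic acid to O-linked sugars, gave 58.4 and 63.2 versus 836 and 598, a gap of 9.46-fold. St3gal6, which caps galactose on selectin ligands and glycolipids, gave 28.5 and 33.1 versus 179.9 and 242, and its second probe set gave 25.6 and 21.7 versus 109 and 144. Both enzymes were low in each Foxp3+ array and high in each Foxp3- array. B3gnt5, which starts lacto-series glycolipids, gave 189.8 and 392 versus 105 and 93.00, and Mgat1, which opens the way to complex N-glycans, gave 561 and 542 versus 359 and 344; both were higher. The other 32 of 36 measured glycan enzymes did not pass (29 reached the filter in every array), among them the main lymphocyte sialyltransferase St6gal1, at 6546 and 7820.0 versus 4014 and 5858. St3gal2, St3gal5, St6gal1 and St8sia4 were separated upward, with gaps of 1.35-fold, 1.37-fold, 1.12-fold and 1.2-fold, and St3gal1, St8sia1 and St8sia6 overlapped. Of the 36 glycan enzymes 5.56% were higher and 5.56% lower, beside 2.80% and 1.93% of all measured genes. For the whole list the median log2 difference was -0.19 (-0.15 without CD25hi Foxp3+ cells to 0.18 without CD25+ Foxp3- cells). Hs3st3b1, which sulfates heparan sulfate, was lower too, at 55.5 and 65.4 versus 238 and 653.

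**Figure D2:**
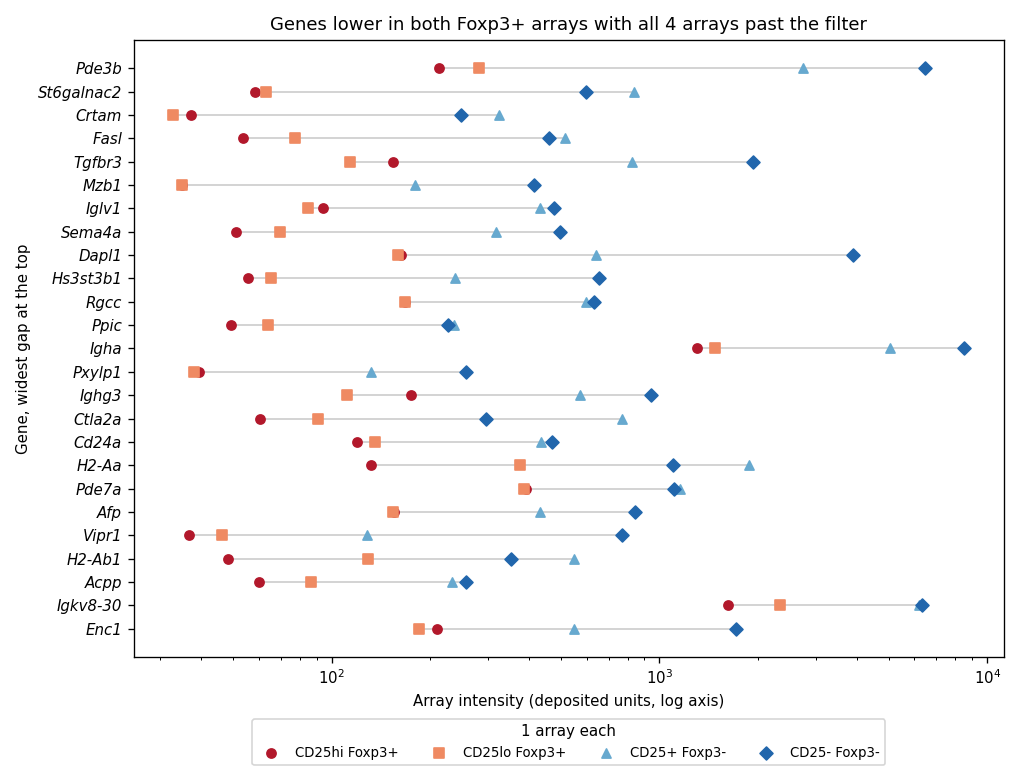
Array intensity on a log axis (deposited units) of the 25 genes with the widest gap among those lower in both Foxp3+ arrays whose 4 arrays all reached the filter, with 1 point per array and a line joining each gene's lowest and highest array. Both Foxp3+ points lie to the left of both Foxp3- points in every gene shown, which the choice of genes fixes, and the Foxp3- points nearly coincide for Rgcc, Pde7a and Cd24a but lie far apart for Dapl1 and Vipr1.

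Naive and activated T cell genes were shared by side only in part. Of 19 measured naive genes, all past the filter in every array, 5 were lower (Dapl1, Igfbp4, Pde3b, Tdrp and Vipr1) and none was higher, with a median log2 difference of -0.84 (-1.14 without CD25+ Foxp3- cells to -0.30 without CD25lo Foxp3+ cells). Dapl1, of the death-associated protein family, gave 163 and 159 versus 639 and 3909, and Igfbp4, which binds insulin-like growth factors, gave 1266 and 412 versus 1996 and 13217. In both, CD25- Foxp3- cells were far above CD25+ Foxp3- cells. Lef1, a factor of naive and thymic T cells, gave 607 and 491 versus 526 and 2026, so that CD25- Foxp3- cells alone stood high. Of 27 measured activated and memory genes (26 past the filter in every array), 9 were higher and 2 lower, with a median of 1.08 (0.60 without CD25lo Foxp3+ cells to 1.53 without CD25hi Foxp3+ cells). S100a6, a calcium-binding protein, gave 1503 and 4516 versus 614 and 326, and Anxa2, an annexin, gave 1259.7 and 2715 versus 784 and 702. In both the CD25lo Foxp3+ array stood well above the rest. Cd44 gave 2544 and 3260.4 versus 2744 and 1175 and overlapped between the sides.

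The interferon and cell cycle lists and the housekeeping list held few shared genes. Among 29 interferon-response genes (27 past the filter in every array) Gbp3, a guanylate-binding protein, gave 3614 and 3331 versus 1524 and 455 and Isg20, an exonuclease, gave 1304 and 1242 versus 461 and 765, and the other 27 did not pass. Among 39 cell cycle genes (35 past the filter in every array) Cdc25b, a phosphatase that activates cyclin-dependent kinases, gave 304 and 766 versus 141 and 193 and E2f2 gave 598 and 528 versus 344 and 313, both higher. E2f2 lost the gap when the median over probe sets was taken, and again when every probe set had to pass. Higher genes made up 6.90% of the interferon list and 5.13% of the cell cycle list, beside 2.80% of all measured genes. No housekeeping gene of 14 passed, and the housekeeping list's median log2 difference was -0.09 (-0.07 without CD25- Foxp3- cells to 0.03 without CD25+ Foxp3- cells). Probe sets of multigene families such as the guanylate-binding proteins can also take up signal of a relative.

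**Figure D3:**
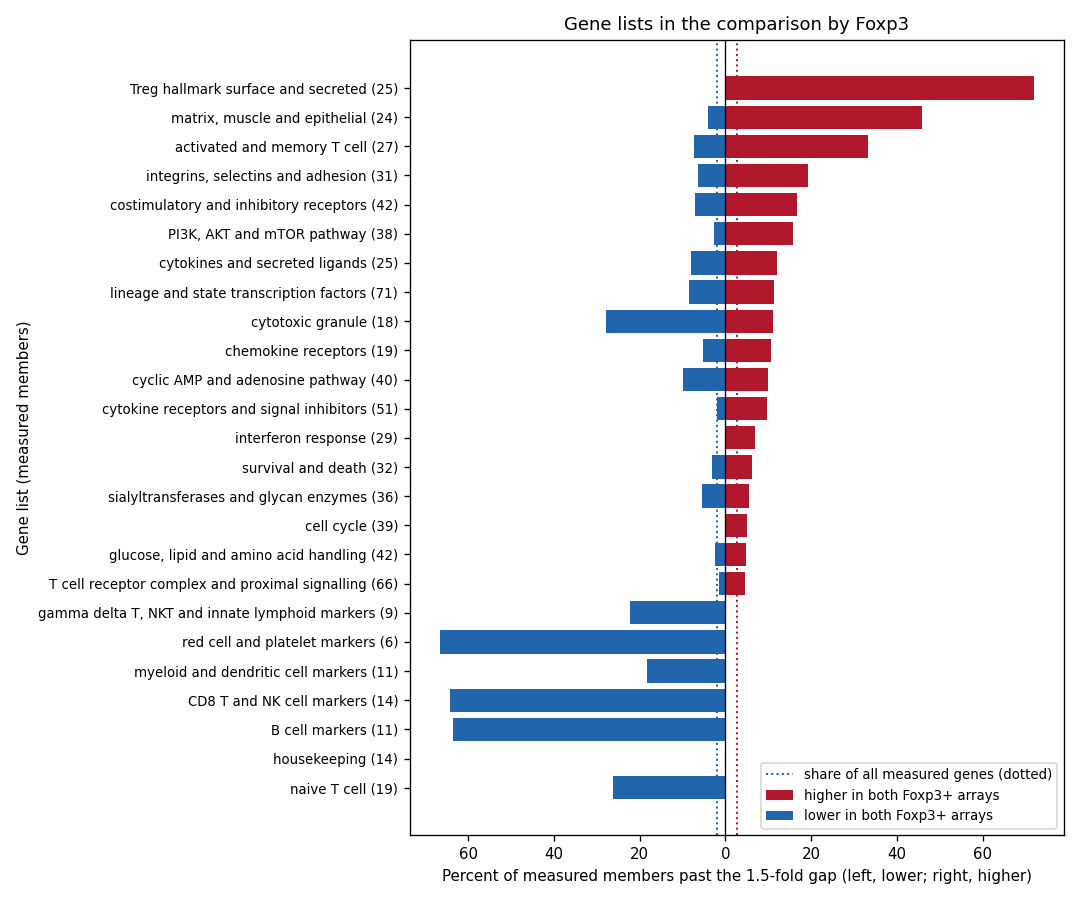
Percent of each list's measured members that were higher (right) or lower (left) in both Foxp3+ arrays by at least 1.5-fold, with the number of measured members in brackets and dotted lines at the shares of all measured genes, 2.80% and 1.93%. The Treg list has the longest bar to the right, with 18 of 25 members, and the lists of markers of other cell types have bars to the left only. The list of matrix, muscle and epithelial genes was written with the genes of widest gap known.

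Relative to the spread within the sides, some of the cleanest differences were of moderate size. Edem1, which helps to clear misfolded glycoproteins from the endoplasmic reticulum, gave 3512 and 3644 versus 2136 and 2138. A second Edem1 probe set had a gap of 1.34-fold and did not pass. Tut4, which adds uridines to RNA ends, gave 2186 and 2098 versus 1392 and 1388, although its other probe sets had gaps between none and 1.66-fold. Atp9a, a phospholipid flippase, gave 272 and 252 versus 120.1 and 126. In these 3, chosen for small spread, the arrays of a side differed by little in the probe set used. There the sides were apart by 1.51-fold to 2.01-fold. Trp53i11, a target of p53, gave 266 and 253 versus 82.5 and 89.7, and Tbc1d30, which acts on Rab GTPases, gave 77.8 and 72.7 versus 24.04 and 21.3. Slc43a1, a transporter of large neutral amino acids, gave 29.8 and 32.99 versus 10.1 and 10.1, a gap of at least 2.95-fold since both Foxp3- arrays were at the floor.

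The lower genes with the least spread within the sides included Rgcc, a regulator of the cell cycle that responds to complement, at 168 and 167 versus 598 and 634. Cd24a, a surface glycoprotein of immature lymphocytes and B cells, gave 119 and 136 versus 434 and 471. Another Cd24a probe set had Foxp3- arrays further apart, at 49.2 and 56.2 versus 309 and 122. Il1rl2, a receptor for IL-36 cytokines, gave 18.3 and 16.8 versus 67.8 and 66.4, and Syne2, which links the nucleus to the cytoskeleton, gave 27.8 and 32.6 versus 100.4 and 107. By the probe sets used, Foxp3+ arrays lay below Foxp3- arrays by more than 3-fold in these 4 genes, and Il1rl2 and Syne2 were under or near the filter in the Foxp3+ arrays. B3galt6, an enzyme of the sugar linker of proteoglycans, gave 30.4 and 30.2 versus 52.5 and 55.2, and Smim26, a small membrane protein, gave 105 and 102 versus 206 and 219.8. Klra16, of the Ly49 receptor family of NK cells, gave 16.00 and 14.5 versus 39.3 and 36.3, and Eya2, a transcriptional coactivator, gave 10.1 and 10.3 versus 32.5 and 28.4. The Foxp3+ values of B3galt6, Klra16 and Eya2 were all under the filter. Those of Eya2 were at or next to the floor, which limits their spread, and Eya2 reached the filter in CD25+ Foxp3- cells alone.

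Other genes with wide gaps belong to none of the groups above. Sytl2, which docks secretory vesicles, gave 1022 and 1656 versus 245 and 260.1, and Lclat1, an acyltransferase of cardiolipin precursors, gave 1532 and 1881 versus 392 and 216. Fcmr, the Fc receptor for IgM, gave 199 and 479 versus 40.3 and 64.96. All 3 were far above the Foxp3- arrays in both Foxp3+ arrays. Pard6g, a cell polarity protein, gave 757 and 664 versus 133 and 226. Niban1, a stress-response protein, gave 2006 and 3757 versus 763 and 282, and Slc35d1, a transporter of nucleotide sugars, gave 763 and 290.1 versus 107 and 86.1. Downward, App (amyloid precursor protein) gave 16.9 and 35.7 versus 183 and 529.8, Enc1, an actin-binding protein, gave 210.2 and 184 versus 548 and 1711 and Ppic (cyclophilin C) gave 49.4 and 64.1 versus 237 and 226. Afp (alpha-fetoprotein) gave 155 and 154 versus 432 and 841, but its other 3 probe sets had gaps of 1.66-fold, 1.24-fold and none. Mctp2, Lypd6b and Atp8b4 were lower with gaps of 6.57-fold, 5.16-fold and 4.78-fold, from Foxp3+ values of 42.0 or less.

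The genes beside Foxp3 on the X chromosome did not move as a block. In the RefSeq order these are Ppp1r3f and the long noncoding RNA Flicr on one side, and Ccdc22, Cacna1f and Syp on the other. Flicr gave 35.98 and 22.2 versus 10.1 and 11.3, a gap of 1.96-fold from low intensities. Ccdc22, whose product takes part in endosomal sorting, was lower at 57.9 and 27.7 versus 231 and 293 by one probe set, and another probe set of it was level, at 50.4 and 46.3 versus 46.5 and 50.2. Ppp1r3f, a subunit of a glycogen-associated phosphatase, gave 408 and 294 versus 136 and 246, and Syp (synaptophysin) gave 52.2 and 30.4 versus 26.9 and 19.2; neither passed the gap. Cacna1f was at the floor in all 4 arrays.

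The populations within a side were not equal for the shared genes. Of the 269 higher genes, CD25hi Foxp3+ cells exceeded CD25lo Foxp3+ cells in 97 (36.1%), beside 55.4% of all measured genes. CD25+ Foxp3- cells exceeded CD25- Foxp3- cells in 167 of them (62.1%), beside 49.3% of all measured genes. CD25+ Foxp3- cells were at least 2-fold above CD25- Foxp3- cells in 47 of the 269 (17.5%) and at least 2-fold below them in 3 (1.12%), against 12.1% and 6.43% of all measured genes. Tnfrsf4, Nt5e, Ikzf2 and Dusp4, given above, are examples in which CD25+ Foxp3- cells lay between. Of the 186 lower genes, 68 (36.6%) differed at least 2-fold between the Foxp3- arrays, 31 with CD25+ and 37 with CD25- cells higher, against 18.5% of all measured genes. The rule looks only at the inner values of the sides, and no test was made of these shares.

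The comparison can be split into 2 differences that share no array. For the higher genes the median log2 difference was 1.18 between CD25hi Foxp3+ and CD25+ Foxp3- cells and 1.56 between CD25lo Foxp3+ and CD25- Foxp3- cells. For the lower genes the medians were -1.71 and -1.56, and for all measured genes they were 0.03 and -0.05. The sign in the chosen genes is fixed by the rule. Of all 9622 measured genes, 293 had both differences at least 2-fold in the same direction, of which 140 were among the higher genes and 115 among the lower genes. A gap of at least 2-fold, which 111 higher and 96 lower genes had, makes both differences at least 2-fold by construction. The count is therefore largely set by the rule and supports nothing. Il21 and Id2 lay further apart in the first of these differences, and Dapl1 and Pde3b in the second.

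**Figure D4:**
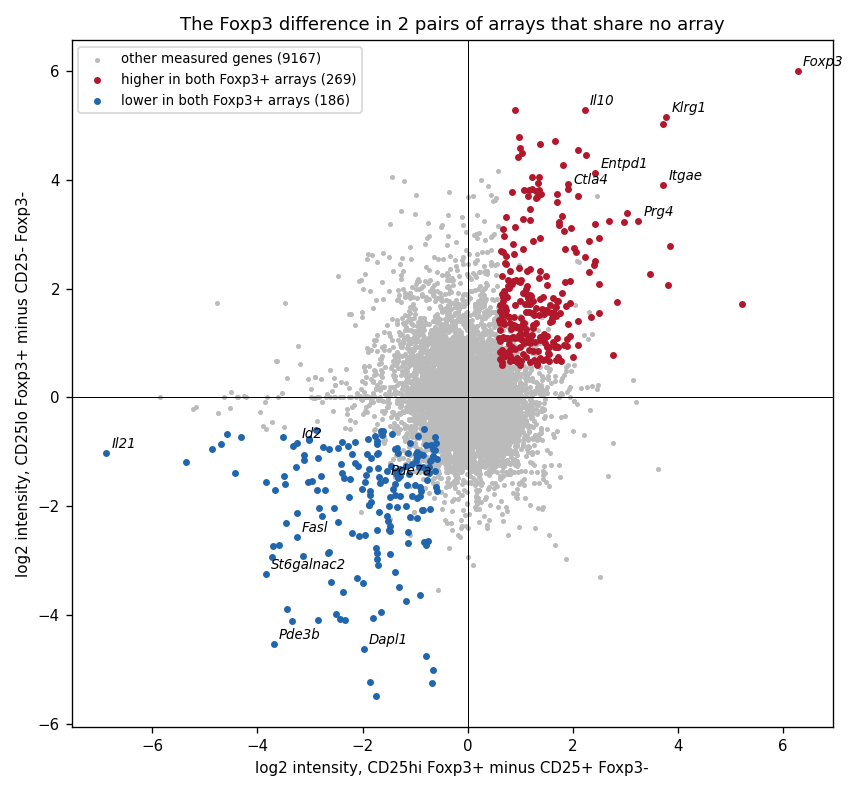
Log2 intensity of CD25hi Foxp3+ minus CD25+ Foxp3- cells (horizontal) against CD25lo Foxp3+ minus CD25- Foxp3- cells (vertical), 1 point per measured gene. The 269 higher genes fill the upper right and the 186 lower genes the lower left by the rule that chose them, with Foxp3 at the far upper right and Pde3b and Dapl1 at the lower left.

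Some markers of other cell types were lower in the Foxp3+ arrays. Of 11 measured B cell markers 7 were lower (Ms4a1, Ly86, Mzb1, Pou2af1, H2-Aa, H2-Ab1 and H2-Eb1), and of 14 CD8 T and NK cell markers 9 were lower (Cd8a, Cd8b1, Klrd1, Klrc1, Klrk1, Eomes, Gzmk, Gzma and Nkg7). Of 11 myeloid markers 2 were lower (S100a9 and Tyrobp), of 6 red cell markers 4 (Alas2, Klf1, Car1 and Slc4a1) and of 9 gamma delta T, NKT and innate lymphoid markers 2 (Zbtb16 and Trgv4). None of these markers was higher. In the order used above, the summed intensity was 1448, 2284, 7533 and 3835 over 16 B cell markers, of which Pax5 and Fcer2a were at the floor in every array. It was 819, 2477, 1315 and 1752 over 18 myeloid markers, with Cd14, Itgam and Siglech at the floor throughout, so that CD25lo Foxp3+ cells were highest there. It was 635, 578, 1873 and 1219 over 12 red cell and platelet markers, with Hba-a1, Ppbp and Gp9 at the floor throughout. Over 10 gamma delta T, NKT and innate lymphoid markers it was 5373, 5943, 7886 and 8275, with Sox13 at the floor throughout, and among the CD8 T and NK cell markers Klrc2 was at the floor throughout.

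Immunoglobulin transcripts followed the same side. Summed over 20 immunoglobulin and J chain genes with a probe set, the intensity was 12921, 15231, 25882 and 32931. Of 11 measured, 9 were lower, 1 was separated without passing the gap (Ighm, at 8884 and 9906 versus 10053 and 14192) and 1 was higher. Igha, the heavy chain of IgA, gave 1302 and 1472 versus 5053 and 8511, and the light chain gene Iglv1 gave 94.2 and 84.5 versus 433 and 476. The higher one was the variable segment Ighv14-2, at 96.1 and 94.9 versus 30.5 and 30.1, and in all 3 of these genes the arrays of a side lay closer to each other than to the other side. Igkv15-103 gave 10.1 and 10.1 versus 51.2 and 173, a gap of at least 5.07-fold from floor values. Without the listed markers of other cell types and the immunoglobulin genes, 268 genes were higher and 153 lower, so 33 of the 186 lower genes belong to those lists. The part that other cells take in the remaining lower genes was not tested.

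**Figure D5:**
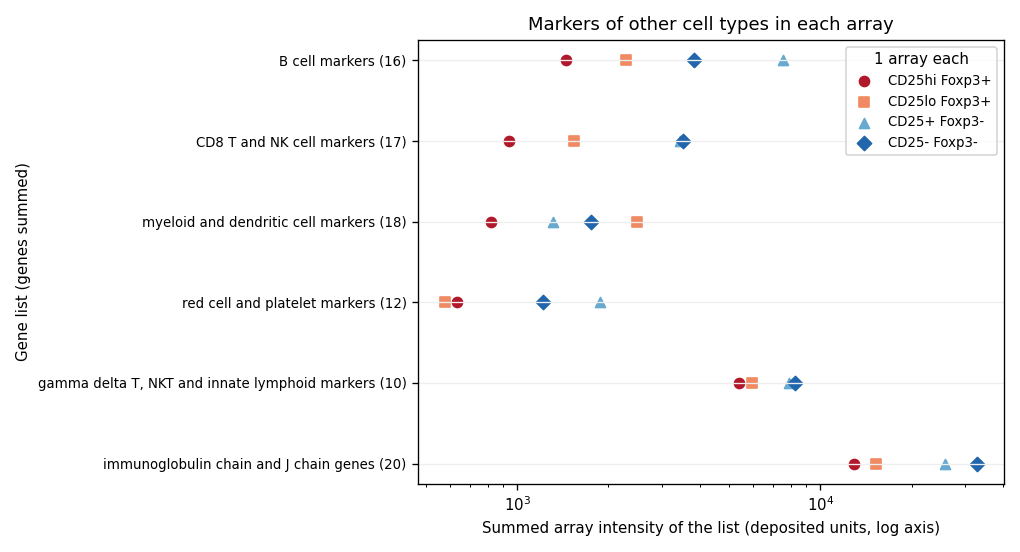
Summed array intensity on a log axis (deposited units) of each list of markers of other cell types, with 1 point per array and the number of summed genes in brackets. Both Foxp3+ points lie below both Foxp3- points in every list except the myeloid one, where CD25lo Foxp3+ cells have the highest sum, 2477.

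The lower genes passed the low-value filter less evenly than the higher ones. All 4 arrays reached the filter in 189 of the 269 higher genes (70.3%) and in 88 of the 186 lower genes (47.3%), beside 8493 of all 9622. Among those 8493 genes alone, 189 were higher (2.23%) and 88 were lower (1.04%). At least 1 array was at the floor in 13 higher and 15 lower genes. At the 1.5-fold limit itself, Lpin2, Tut4 and Mgat1 lay just inside and Haghl, Cdc42se2 and Gucy1b1 just outside on the upward side. On the downward side Ugcg, Tcl1b3 and Ms4a4c lay just inside and Zdhhc3, Lgals3bp and Dennd4c just outside. Lpin2 gave 582 and 704 versus 387 and 330.0 and Cdc42se2 gave 4449 and 4605 versus 2188 and 2975, which shows how little separates the 2 sides of the limit. Genes with clone or locus symbols made up 7 of the higher and 6 of the lower genes and are not named.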

How the data were processed

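The 4 arrays, 1 per sorted population, were grouped by their titles. The authors deposited a linear intensity for each probe set, as the values show. Their probe summary, background correction and normalization are not given in the sources used here. Array medians lay between 15.03 and 15.6, so the deposited scale was kept. Of 45101 probe sets, 64 controls were left out, 34945 had 1 gene in the platform annotation, 932 had several and 9160 were not listed with a gene; 34741 matched the RefSeq table of GRCm38.p6 by Entrez identifier. Intensities under the 40th percentile, 10.1, were set to it, and a probe set entered when its highest array reached the 60th percentile, 32.5. That left 17003 probe sets and 9622 genes, out of 18193 with a probe set, each read from the probe set with the highest mean log2 intensity. List medians are of the mean log2 intensity of the Foxp3+ arrays minus that of the Foxp3- arrays.

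With 1 array per population no test was made, and the counting was tested on simulated data. Alternatives changed the floor, the filter, the probe set rule, the scaling and the gap, and left out each array. Python 3.11.15, numpy 2.4.6 and pandas 2.3.3 were used.

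The comparison, its genes and the 25 gene lists were chosen with earlier results of these data known. By rule, the named genes are Foxp3 and Il2ra, the 15 widest gaps in each direction, the 25 widest among genes whose 4 arrays reach the filter, the 12 with the widest gap relative to the spread within sides, the 3 just inside and outside the limit, the list members past the gap, and up to 4 that were not. Gucy1a1, the genes beside Foxp3, the immunoglobulin genes, the genes with a forkhead match and list members named in a count of 7 or fewer that did not pass were named outside it, after their values were seen.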

Additional observations from a re-analysis of the deposited data

Results flagged for a closer look

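In the cell cycle list the 2 differences that share no array had opposite signs: the median log2 difference was -0.42 between CD25hi Foxp3+ and CD25+ Foxp3- cells and 1.17 between CD25lo Foxp3+ and CD25- Foxp3- cells. In the interferon-response list they were 0.52 and -0.40. Neither contrast between the differences was tested, and with 1 array per population none can be. Mcm5, a subunit of the replicative helicase, gave 3377 and 2196 versus 7619 and 1514, and the interferon-induced gene Ifit3 gave 492 and 468 versus 279 and 787. In Mcm5 the CD25+ Foxp3- array stood above both Foxp3+ arrays and the CD25- Foxp3- array below them, and in Ifit3 that order was turned round.

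Of 2640 probe sets without 1 named gene past the filter, which the report does not use, 58 (2.2%) were higher and 48 (1.82%) lower on the Foxp3+ side by at least 1.5-fold, beside 2.80% and 1.93% of measured genes.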

How the results depend on the processing

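No paired analysis was possible because each population has 1 array and the labels give no number shared between populations. The counts of 269 higher and 186 lower genes stayed within 1.5 times under both other floors, no filter, other probe set rules and other scalings. A filter at the 75th percentile left 115 lower genes, and 79 in the pairing by CD25; asking all 4 arrays to pass left 88 lower genes. Both settings test fewer genes. Asking every probe set to pass left 189 genes in the pairing by neither marker. By construction, a 2-fold gap gave 111 higher and 96 lower genes, and 29 and 54 in the pairings by CD25 and by neither; with any gap these were 1636, 1437, 2616 and 3909. Leaving out 1 array, which sets 1 array against 2, gave 454 to 998 higher genes and 298 to 1025 lower genes: 620 and 669 without CD25hi Foxp3+, 454 and 298 without CD25lo Foxp3+, 998 and 653 without CD25+ Foxp3- and 775 and 1025 without CD25- Foxp3- cells. The median of the gamma delta T, NKT and innate lymphoid markers, -1.25, turned to 0.36 when all 4 arrays had to pass, which 3 members did, and lay between -2.29 and 0.19 when 1 array was left out, positive without CD25+ Foxp3- cells. Among the 25 lists, the medians of 9 changed sign when 1 array was left out: 8 without CD25+ Foxp3-, 2 without CD25- Foxp3-, 2 without CD25hi Foxp3+ and 1 without CD25lo Foxp3+ cells. Without CD25+ Foxp3- cells the medians of 11 lists, beside the one just given, and the log2 gaps of 97 named genes moved by more than the spread between arrays of a side. For the other arrays this was 9 lists and 34 genes without CD25- Foxp3-, 4 and 41 without CD25hi Foxp3+, and 4 and 46 without CD25lo Foxp3+ cells. The cause was not tested.

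Of 166 named genes past the gap, all 166 stayed past it under both other floors and with no filter, as did 146 of 146 measured at the 75th percentile and 115 of 115 with all 4 arrays past the filter. Taking the median over probe sets kept 153, quantile normalization 162 of 164, scaling to a common median 162 of 165, and asking every probe set to pass 142, with 162 of 166 in the same direction. The others no longer separated the sides in every probe set, among them Epcam. Cd99l2, Igfbp4 and Itgb5 were among the genes that lost the gap when every probe set had to pass. The median over all genes moved by less than 0.1 (log2) under every setting. Intensities near the floor limit the size of gaps, and list medians were not computed with every probe set required to pass.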
